A study of Mus musculus with 10 samples.

Results

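Antisense non-coding RNAs are transcribed from the strand opposite a protein-coding gene. The genes described here were the rows that the deposited count table of mouse heart ventricles lists with the biotype antisense and that were selected on a sum of at least 500 raw counts over all 10 libraries. Of 1885 antisense genes among 40690 genes in the table, 45 met this rule. Gm14236, with 3261941 counts, was left out by the rule. The sum takes no account of group, so the abundance of these genes is a description, and the difference between the groups does not enter the rule. The set itself was chosen with earlier results of these data known. Just inside the limit lay Gm12002 with 519 counts, Gm16536 with 544, 4930599N23Rik with 546 and Gm2415 with 577. Just outside it lay 2310040G07Rik with 496, Gm16299 with 489, Adap2os with 485 and 2810001G20Rik with 482.

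An antisense transcript can begin next to the start of its neighbour and run away from it, cross the neighbour's first exon, lie inside its body, or run into its far end. Some act on the gene at their own locus. Airn and Kcnq1ot1 are made from the paternal chromosome and silence neighbouring genes on it, and Mhrt is a heart transcript from the myosin heavy chain locus that binds a chromatin remodelling factor. Most of the others carry only a clone or locus name.

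All animals were 10-week-old C57BL/6 males. The sham group was 5 mice that had a sham version of ischemia-reperfusion surgery, the control for closing and reopening a coronary artery. The naive group was 5 mice left without surgery, so the comparison sets the whole sham procedure against none. The labels do not say whether the groups also differed in handling or collection. How long after surgery the hearts were taken is not stated in the labels. The labels name no transgene or drug in either group. RNA of whole ventricle was selected for poly(A) tails and sequenced without marking the strand. A read in a stretch where an antisense gene and its neighbour share exon bases can therefore come from either, and the labels do not say how such reads were counted. Where an antisense exon lies in an intron of the neighbour, a read can also come from the neighbour's unspliced RNA. The part of such reads was not tested.

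Library totals ran from 9683181 to 17577906 counts in naive and from 10654107 to 21537135 in sham libraries, and all 45 antisense genes had counts in every library, with 13 as the lowest single count. Values are in CPM, counts scaled to the library total and to edgeR's TMM factors, given as mean ± SD with n = 5, and differences are log2 fold changes of sham against naive with their standard error. Each p is from edgeR's quasi-likelihood F test, adjusted by Benjamini and Hochberg over all 13622 genes tested, with 0.05 as the limit. The standard error was back-calculated as the absolute log2 fold change divided by the square root of F in this test. Markers of heart muscle of the ventricle were abundant, with a summed level of 82512 to 85883 CPM in naive and 61000 to 70707 CPM in sham libraries, and 9 of 10 were lower in sham. Of the fibroblast markers 7 of 8 were higher, from a summed 951 to 1325 CPM in naive to 8891 to 15849 CPM in sham. All 8 macrophage and monocyte markers and 5 of 5 tested cell cycle genes were also higher, whereas 3 of 6 mesothelial markers were lower, and of 6 endothelial markers 3 were lower and 1 higher. In whole tissue, fewer cells of a type and less RNA per cell cannot be told apart, and the part of these shifts in the results below was not tested. Among the other lists 2 of 2 tested neutrophil, 1 of 1 lymphocyte, 1 of 3 atrial and 1 of 6 smooth muscle and pericyte markers were higher, 1 of 4 skeletal muscle markers was lower, none of 4 red cell markers passed, and no fat marker was abundant enough to test.

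Each antisense gene was given a partner on the opposite strand, the protein-coding gene that shares most exon bases with it, or else the one whose span it overlaps most, or else the one whose start is nearest within 2000 bases. Exon bases were shared with the partner by 32 genes, 6 overlapped only its span, 6 began beside its start without overlap and Foxo6os had no partner. In 26 of the 44 pairs the nearest starts lay within 1000 bases of each other, and in 18 within 300 bases. The 300-base windows around the annotated start are shown for 4 such loci whose antisense gene was lower in sham. They were chosen because here a single stretch of DNA holds an annotated start of each gene. The windows are RefSeq's on GRCm38.p6, from 250 bases before the start to 50 bases from it. They are written 5′ to 3′ in the direction of the named gene, and capitals mark the searched motifs, of which only CCAAT and GGGCGG (or the reverse complement of either) were found.
Col16a1, chr4:130047590-130047889, plus strand: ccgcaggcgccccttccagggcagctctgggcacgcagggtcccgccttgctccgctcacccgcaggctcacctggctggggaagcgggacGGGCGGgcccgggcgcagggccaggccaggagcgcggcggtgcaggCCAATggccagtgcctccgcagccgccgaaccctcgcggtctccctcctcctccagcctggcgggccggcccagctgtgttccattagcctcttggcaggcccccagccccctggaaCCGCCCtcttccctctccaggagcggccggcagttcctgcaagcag
Pdgfa, chr5:138994895-138995194, minus strand: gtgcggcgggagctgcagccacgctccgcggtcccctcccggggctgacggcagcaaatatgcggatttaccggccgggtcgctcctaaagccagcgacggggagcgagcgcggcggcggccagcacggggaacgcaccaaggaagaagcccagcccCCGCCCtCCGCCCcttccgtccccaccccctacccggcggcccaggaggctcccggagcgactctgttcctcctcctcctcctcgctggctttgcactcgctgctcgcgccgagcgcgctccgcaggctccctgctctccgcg
Map2k3, chr11:60931804-60932103, plus strand: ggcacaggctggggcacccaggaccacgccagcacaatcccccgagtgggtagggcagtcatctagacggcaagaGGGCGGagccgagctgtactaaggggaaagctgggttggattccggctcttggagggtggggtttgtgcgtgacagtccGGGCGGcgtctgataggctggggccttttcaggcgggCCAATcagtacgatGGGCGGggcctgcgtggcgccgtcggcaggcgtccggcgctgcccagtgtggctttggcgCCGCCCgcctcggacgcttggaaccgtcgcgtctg
1810034E14Rik, chr13:64248450-64248749, plus strand: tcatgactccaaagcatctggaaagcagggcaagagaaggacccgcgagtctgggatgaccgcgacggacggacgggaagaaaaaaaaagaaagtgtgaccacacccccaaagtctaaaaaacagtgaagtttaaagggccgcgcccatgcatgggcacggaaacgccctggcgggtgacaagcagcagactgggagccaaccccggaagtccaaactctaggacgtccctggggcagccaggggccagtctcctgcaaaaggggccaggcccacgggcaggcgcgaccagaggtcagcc

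In the first window the start of the antisense gene Gm12963 lies at base 185 and runs to the left, and the nearest start of Col16a1 lies at base 251, 66 bases away. In the second, 6330403L08Rik starts at base 139 and the nearest start of Pdgfa 19 bases from it, at base 158. In the third, Map2k3os starts at base 64 and Map2k3 at base 230, 166 bases apart. The fourth is the antisense gene's own, with its start at base 251 and the nearest start of Cdc14b, on the other strand, at base 193. The 5′ end of the whole Cdc14b gene lies 26590 bases from the antisense gene's start. The windows hold 24, 37, 28 and 17 CpG sites, against a median of 7 over all 32817 RefSeq windows of this length. Matches to GGGCGG numbered 2, 2, 4 and 0, and the Col16a1 and Map2k3 windows each hold 1 CCAAT. Of all windows, 35.6% hold GGGCGG and 37.4% CCAAT. No match to TATAAA (13.6% of all windows), TGANTCA (7.81%) or CACGTG (7.15%) lies in these 4 windows. A match is a description of the letters and not a measured binding site.

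After the sham operation 12 of the 45 antisense genes were lower on the TMM scale (1 with library size alone, as given below), 2 were higher and 31 did not pass the test. The lower ones were 26.7% of the 45, beside 15.5% of all tested genes, and the higher ones 4.44%, beside 17.2%. Calls in either direction took 31.1% of the antisense genes and 32.7% of all genes. The median log2 fold change of the 45 was -0.27 and that of all genes -0.05, and 36 of the 45 values were negative. Of the 149 tested antisense genes below the 500-count limit 10 were lower and 3 higher, with a median of -0.23. The 12 lower genes were Gm12963, Foxo6os, Gm13111, 6330403L08Rik, Gm19461, 1810034E14Rik, Gm10138, Map2k3os, 4930481A15Rik, Gm13375, Atcayos and Gm15417. The 2 higher genes were 4930599N23Rik and Brip1os. All but Gm12963 among the lower genes changed by less than 1 on the log2 scale.

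**Figure D1:**
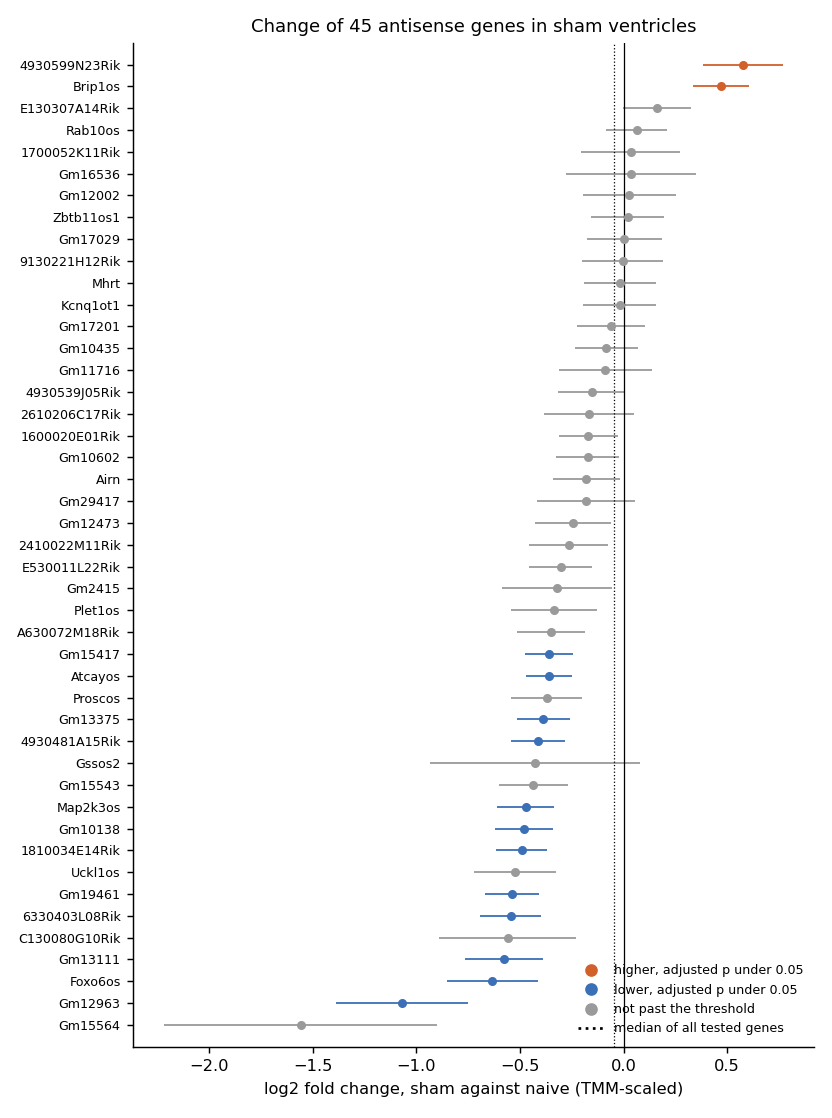
Log2 fold change of sham against naive (x axis, TMM-scaled) for the 45 antisense genes (y axis), with bars for 1 standard error, blue for lower, orange for higher and grey for not past the threshold. The 12 lower genes lie between -1.07 and -0.36, the 2 higher at 0.47 and 0.58, and the dotted line marks the median of all tested genes at -0.05. With library size alone 1 gene was lower.

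The count of lower genes rested on the scaling and on single libraries. Scaling by library size alone instead of by TMM, which moved the median of all genes by 0.26, left 2 antisense genes higher and 1, Gm12963, lower, and put the median of the 45 at 0.00162. Over all genes this scaling gave 4473 higher and 283 lower. Leaving out single libraries gave 3 lower genes without sham 5, 6 without sham 3, 7 without sham 2 or naive 3 and 10 to 13 without any other. The higher genes numbered 1 or 2 in these fits. The calls of 6330403L08Rik, Gm19461, 1810034E14Rik and Brip1os held in all 10 such fits.

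**Figure D2:**
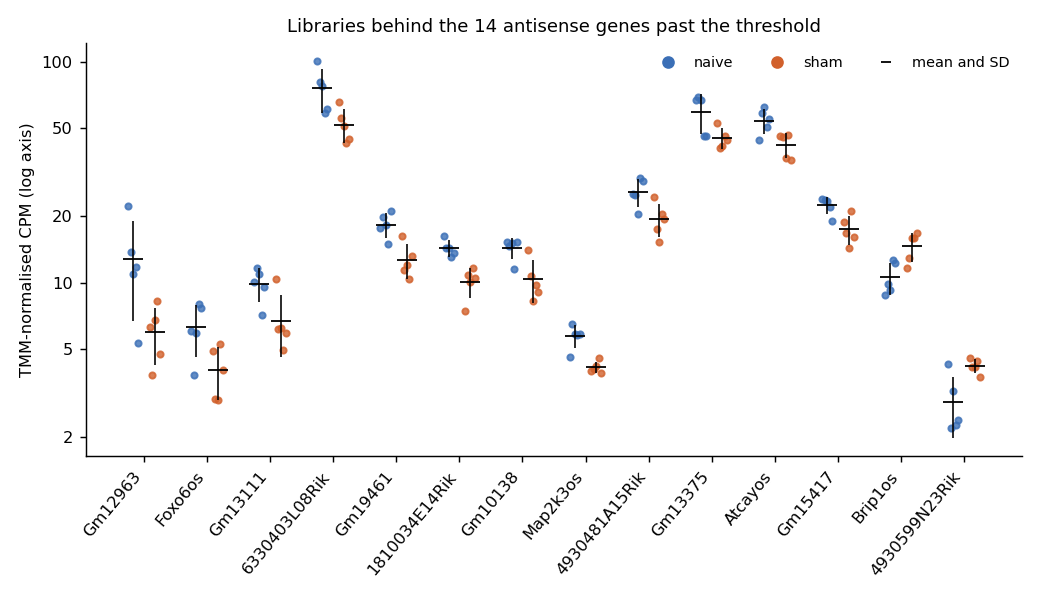
TMM-normalised CPM (y axis, log scale) in each of 5 naive (blue) and 5 sham (orange) libraries for the 14 antisense genes past the threshold, with the mean and SD as black marks. In 1810034E14Rik and Map2k3os all 5 sham libraries lie below all 5 naive libraries, and in the other 12 genes the groups overlap. Of all 13622 tested genes, 1251 lie fully below in this way and 1846 fully above.

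Among the 6 genes that begin beside a partner's start without overlapping it, 4 (66.7%) were lower and 2 did not pass. Over all tested genes 15.5% were lower. With library size alone Gm12963 was the only lower gene of the 6, beside 283 of all 13622 genes. These 6 genes share no exon base with the partner, so reads within annotated exons are not ambiguous between the 2 genes. Gm12963 (chr4:130024256-130047774, minus strand, ENSMUSG00000085517) has its start beside Col16a1, which encodes a fibril-associated collagen. Its 5 naive libraries held 22.2, 13.7, 10.98, 11.8 and 5.37 CPM and its 5 sham libraries 6.32, 3.82, 6.78, 8.26 and 4.77 CPM. The groups overlapped through naive 5, the lowest naive library. The mean fell from 12.8 ± 6.12 to 5.99 ± 1.74 CPM (-1.07 ± 0.32 on the log2 scale, edgeR adjusted p = 0.0212). Col16a1 moved the other way, from 27.4 ± 5.87 to 126 ± 15.5 CPM (2.21 ± 0.13, edgeR adjusted p = 9.31e-09), with every sham library above every naive library. Without sham 5 the call of Gm12963 was lost (edgeR adjusted p = 0.0546).

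Map2k3os (chr11:60920917-60931867, minus strand, ENSMUSG00000042549) starts beside Map2k3, the gene of a kinase that activates p38. Its naive libraries held 4.64, 6.52, 5.85, 5.80 and 5.87 CPM and its sham libraries 3.98, 4.10, 4.23, 4.55 and 3.91 CPM, so that the groups did not overlap. The log2 fold change was -0.47 ± 0.14 (edgeR adjusted p = 0.0149), and the call was lost without sham 5 (0.0534) and with no filter on low counts (0.0991). Map2k3 was lower as well, at -0.24 ± 0.074, with all sham libraries below all naive libraries. Gm13375 (chr2:20969054-20969997, plus strand) starts 173 bases from Arhgap21, the gene of a GTPase-activating protein. In naive libraries it stood at 66.99, 69.5, 67.2, 46.02 and 46.03 CPM and in sham libraries at 52.8, 40.8, 41.7, 46.2 and 44.3 CPM. Naive 1 to 3 stood above all sham libraries, whereas naive 4 and 5 lay among them. On the log2 scale the difference was -0.39 ± 0.13 (edgeR adjusted p = 0.0284), beside -0.37 ± 0.087 for Arhgap21. The call was lost in 7 of the 10 fits with 1 library left out, those without naive 1, 2 or 3 or sham 2, 3, 4 or 5 (edgeR adjusted p = 0.0544 to 0.089).

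Gm13111 (chr4:154637576-154644724, plus strand) starts 703 bases from Prdm16, which encodes a transcriptional regulator. The naive libraries gave 10.1, 11.7, 10.98, 7.13 and 9.60 CPM and the sham libraries 10.4, 6.18, 6.24, 4.95 and 5.91 CPM. Sham 1 lay among the naive libraries, apart from the other 4 sham libraries. Sham against naive, the log2 fold change was -0.58 ± 0.19 (edgeR adjusted p = 0.0268). The call was lost without naive 2 or 3 or without sham 2, 3, 4 or 5 (edgeR adjusted p = 0.0599 to 0.0779). The others of this class that did not pass were C130080G10Rik, beside the cardiac actin gene Actc1, at -0.56 ± 0.33 (edgeR adjusted p = 0.226), and 2410022M11Rik, beside Zmym5, at -0.27 ± 0.19 (edgeR adjusted p = 0.309). C130080G10Rik spread widely among naive libraries, at 7.02, 10.5, 13.6, 24.5 and 28.03 CPM, and less among sham libraries, at 9.53, 11.5, 10.4, 10.4 and 15.1 CPM. It also shares 38.7% of its exon bases with A530058N18Rik on its own strand, so its counts are uncertain. Actc1 was lower in sham, at -0.41 ± 0.094.

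Of the 15 genes that meet their partner head to head, 3 (20%) were lower and none was higher. Over all tested genes 15.5% were lower and 17.2% higher. 6330403L08Rik (chr5:138995056-139000577, plus strand, ENSMUSG00000075585) is a single exon of 5522 bases that lies head to head with Pdgfa, the gene of a platelet-derived growth factor chain that acts on fibroblasts. Naive levels were 100.1, 81.1, 77.7, 58.4 and 60.99 CPM and sham levels 65.5, 55.6, 50.99, 42.9 and 44.5 CPM. Naive 4 and 5, the lowest naive libraries, lay below sham 1, and the other 3 naive libraries lay above all sham libraries. The mean went from 75.7 ± 16.9 to 51.9 ± 9.13 CPM (-0.54 ± 0.15, edgeR adjusted p = 0.0102). Pdgfa stood at 33.03 ± 3.79 CPM in naive and 37.01 ± 3.40 CPM in sham libraries and did not pass (0.16 ± 0.10, edgeR adjusted p = 0.228). The 2 genes share 813 exon bases, 14.7% of those of 6330403L08Rik.

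Gm10138 (chr1:151339604-151345231, minus strand) lies head to head with Ivns1abp, the gene of a kelch-repeat protein, and shares 9.81% of its exon bases with it. Its naive libraries held 15.2, 14.7, 15.1, 11.6 and 15.3 CPM and its sham libraries 14.1, 10.7, 8.32, 9.73 and 9.05 CPM. Naive 4 lay below sham 1, and all the other naive libraries lay above every sham library. The log2 fold change was -0.48 ± 0.14 (edgeR adjusted p = 0.0159), and the call was lost without sham 5 (0.0542). Ivns1abp was lower as well, at -0.63 ± 0.21. Gm15417 (chr3:89391850-89398779, plus strand) lies head to head with Zbtb7b, which encodes a zinc finger transcription factor, with their nearest starts 99 bases apart. In naive libraries it stood at 23.9, 23.7, 23.5, 22.1 and 19.004 CPM and in sham libraries at 18.8, 16.9, 14.4, 21.1 and 16.1 CPM, and only naive 5 and sham 4 overlapped. On the log2 scale the difference was -0.36 ± 0.11 (edgeR adjusted p = 0.0231), whereas Zbtb7b did not pass at 0.22 ± 0.12 (edgeR adjusted p = 0.168). The call of Gm15417 was lost without naive 2 or 3 or without sham 2, 3 or 5 (edgeR adjusted p = 0.0527 to 0.0702).

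Of the 12 genes inside their partner, 2 (16.7%) were lower and none was higher, beside 15.5% and 17.2% of all tested genes. Gm19461 (chr1:133250398-133269808, minus strand, ENSMUSG00000101693) lies in Plekha6, the gene of a protein with a pleckstrin homology domain, and shares 18.1% of its exon bases with it. The naive libraries gave 17.6, 19.7, 18.3, 14.97 and 21.02 CPM and the sham libraries 16.3, 11.5, 12.01, 10.4 and 13.2 CPM. Only naive 4 and sham 1 overlapped. The mean fell from 18.3 ± 2.30 to 12.7 ± 2.25 CPM (-0.54 ± 0.13, edgeR adjusted p = 0.00470). Plekha6 did not pass (-0.18 ± 0.11, edgeR adjusted p = 0.233). 1810034E14Rik (chr13:64248700-64271852, plus strand, ENSMUSG00000097101) lies in the span of Cdc14b, which encodes a phosphatase, and shares no exon base with it. Naive levels were 16.3, 14.3, 14.4, 13.1 and 13.6 CPM and sham levels 7.45, 10.8, 10.1, 11.6 and 10.6 CPM, with no overlap. Sham against naive, the log2 fold change was -0.49 ± 0.12 (edgeR adjusted p = 0.00611), close to the -0.45 ± 0.14 of Cdc14b, which was lower too (edgeR adjusted p = 0.0223). Reads from unspliced Cdc14b RNA cannot be told apart from those of 1810034E14Rik without strand.

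The 10 genes that run into a partner's far end, tail to tail, held both of the higher genes and 2 lower ones. That is 20% in each direction, beside 17.2% higher and 15.5% lower over all tested genes. Atcayos (chr10:81194609-81210877, plus strand) shares 16.1% of its exon bases with other genes, 432 of them with Atcay, the gene of caytaxin. Its naive libraries held 44.02, 58.3, 62.3, 50.4 and 54.7 CPM and its sham libraries 45.9, 45.8, 36.8, 46.4 and 35.8 CPM. Naive 1 lay among the sham libraries and the other 4 naive libraries above them. The log2 fold change was -0.36 ± 0.11 (edgeR adjusted p = 0.0187), and the call was lost without naive 3, sham 3 or sham 5 (0.0562 to 0.0732). Atcay was lower in sham as well (-0.58 ± 0.19). 4930481A15Rik (chr19:5406740-5422847, plus strand) shares 8.75% of its exon bases with other genes, 43 of them with Drap1, the gene of a transcriptional corepressor. In naive libraries it stood at 25.2, 24.9, 20.4, 29.6 and 28.9 CPM and in sham libraries at 24.3, 17.6, 15.3, 20.4 and 19.5 CPM. Naive 3 lay below sham 1 and level with sham 4, and the other 4 naive libraries lay above every sham library. On the log2 scale the difference was -0.41 ± 0.13 (edgeR adjusted p = 0.0226), with Drap1 at -0.038 ± 0.092 and not past the test. The call was lost without naive 4 or 5 or without sham 2, 3 or 5 (edgeR adjusted p = 0.0506 to 0.074).

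Brip1os (chr11:86201370-86304443, plus strand, ENSMUSG00000085208) was higher in sham. It shares 20.2% of its exon bases with other genes, 800 of them with Med13, a subunit of the Mediator kinase module. The naive libraries gave 8.80, 9.91, 9.24, 12.6 and 12.3 CPM and the sham libraries 11.7, 12.98, 15.97, 15.9 and 16.8 CPM. Naive 4 and 5 lay above sham 1 and below the other 4 sham libraries. The mean rose from 10.6 ± 1.77 to 14.7 ± 2.19 CPM (0.47 ± 0.14, edgeR adjusted p = 0.0148), whereas Med13 was at -0.26 ± 0.20 and did not pass (edgeR adjusted p = 0.354). 4930599N23Rik (chr6:39118473-39148312, plus strand) shares 32.6% of its exon bases with Kdm7a, the gene of a histone demethylase. Naive levels were 4.28, 2.21, 3.24, 2.27 and 2.40 CPM and sham levels 4.59, 4.17, 4.16, 4.42 and 3.75 CPM. All but naive 1 lay below every sham library. Sham against naive, the log2 fold change was 0.58 ± 0.19 (edgeR adjusted p = 0.0317), with Kdm7a at -0.0030 ± 0.17. The call was lost without naive 2, 4 or 5 or without sham 1 or 3 (edgeR adjusted p = 0.0563 to 0.0878).

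Foxo6os (chr4:120291350-120303892, plus strand, ENSMUSG00000084929), named for the forkhead gene Foxo6, shares no exon base with any gene. Its naive libraries held 6.07, 3.81, 5.93, 7.996 and 7.70 CPM and its sham libraries 4.94, 2.99, 2.95, 5.27 and 4.04 CPM. Naive 2 lay among the sham libraries and the other 4 naive libraries lay above them. The log2 fold change was -0.63 ± 0.22 (edgeR adjusted p = 0.0361). The call was lost without naive 3, 4 or 5 or without sham 2, 3 or 5 (edgeR adjusted p = 0.0534 to 0.103).

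The calls were also counted by how much sequence a gene shares with others. The 28 genes that share at most 20% of their exon bases with any gene held all 12 lower genes and no higher one, with a median log2 fold change of -0.34. The 17 that share more held both higher genes and no lower one, with a median of -0.17. Brip1os, 1 of these higher genes, shares 20.2% and so lies just above the limit. The lower genes were 42.9% of the 28 and the higher ones 11.8% of the 17, beside 15.5% and 17.2% of all genes. Of the 12 antisense genes that share no exon base 6 (50%) were lower, and of the 5 that share more than 50% none was called. The 25 genes with at least 1000 counts held 10 of the lower and 1 of the higher genes (40% and 4%). The 20 with fewer held 2 and 1 (10% and 5%). These counts were made with the calls known, and the differences between them were not tested.

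Per kilobase of exon, which allows for exon length but not for shared reads, Gm15543 (162 CPM per kb) and Gm15564 (152) were the most abundant. They were followed by Gm13375 (61.1), Gm12473 (48.6), Mhrt (40.8), Gm10435 (24.3), Gm17201 (16.2) and 4930539J05Rik (13.7). Gm12473, Mhrt and Gm17201 share 49.2%, 39.9% and 59.5% of their exon bases, so their places are uncertain. The median over the 45 was 4.03 CPM per kb. Of these 8 only Gm13375 passed the test.

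Gm15564 (chr16:35966752-35983230, minus strand, ENSMUSG00000086324) overlaps the span of Parp9, a member of the ADP-ribosyltransferase family, without sharing an exon base. It had the lowest fold change of the 45 and did not pass. In naive libraries it stood at 47.6, 72.05, 96.3, 444 and 271 CPM and in sham libraries at 44.95, 43.05, 49.98, 111 and 66.8 CPM. Naive 4 and 5 stood far above the rest, and naive 1, 2 and 3 lay within the sham range. On the log2 scale the difference was -1.56 ± 0.66 (edgeR adjusted p = 0.108). It passed with DESeq2 (0.0381), limma voom (0.0318), no robust estimation (0.0273) and with naive 1 and sham 4 left out together (0.0487), and its value ran from -1.83 to -0.95 over the fits with 1 library left out. Of its 816 distinct 50-base words, 3 also occur in Lars2, the gene of the mitochondrial leucine-tRNA ligase, which lay at 2325, 3793, 4275, 8111 and 5180.1 CPM in naive and 1428, 1439, 2058, 4465 and 2045 CPM in sham libraries. Naive 4 and 5 were the highest libraries in both genes. The part of such shared reads in Gm15564 was not tested.

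Gm15543 (chr6:145182275-145187630, plus strand) lies in the span of Casc1. The naive libraries gave 61.9, 51.3, 66.5, 76.3 and 80.3 CPM and the sham libraries 44.6, 44.2, 35.2, 70.1 and 53.8 CPM, where sham 4 and 5 lay within the naive range. It just missed the limit (-0.44 ± 0.17, edgeR adjusted p = 0.0565) and passed without sham 4 (-0.56, adjusted p = 0.00794) and without naive 2 (0.0256). It also passed with DESeq2 (0.0336), limma voom (0.00673), no filter on low counts (0.00116) and with naive 1 and sham 4 left out together (0.0102). Gm12473 shares 49.2% of its exon bases, 266 of them with Npr2, the receptor of C-type natriuretic peptide. It stood at 30.5 ± 7.13 CPM in naive and 25.8 ± 6.33 CPM in sham libraries (-0.25 ± 0.18, edgeR adjusted p = 0.340). Gm17201, which shares 59.5% of its exon bases with Ankrd52, stood at 6.44 ± 1.17 and 6.18 ± 1.12 CPM (-0.061 ± 0.16, edgeR adjusted p = 0.810). Gm10435 stood at 73.02 ± 14.4 and 69.1 ± 13.2 CPM (-0.083 ± 0.15, edgeR adjusted p = 0.713). 4930539J05Rik, head to head with the ubiquitin-conjugating enzyme gene Ube2d3, stood at 24.1 ± 6.55 and 21.58 ± 3.05 CPM (-0.15 ± 0.16, edgeR adjusted p = 0.497).

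Mhrt (chr14:54968678-54974349, plus strand, ENSMUSG00000097652) did not pass. It runs tail to tail into Myh7, the beta myosin heavy chain gene, and shares 484 of its 1214 exon bases with it. Naive levels were 34.1, 44.4, 38.8, 61.3 and 70.5 CPM and sham levels 42.8, 50.6, 44.1, 59.9 and 49.1 CPM. All sham libraries lay inside the naive range, which was set by naive 1 at its low end and naive 4 and 5 at its high end. Sham against naive, the log2 fold change was -0.018 ± 0.17 (edgeR adjusted p = 0.952), and its sign changed with the scaling. Myh7 was higher in sham, from 452 ± 46.2 to 581 ± 76.05 CPM (0.36 ± 0.10, edgeR adjusted p = 0.0141). Of the 1165 distinct 50-base words of Mhrt, 207 also occur in Myh6, the alpha myosin heavy chain gene, which was lower in sham at -0.34 ± 0.082. Reads shared with Myh7 cannot be assigned without strand, and reads shared with Myh6 may map to either gene, so the level of Mhrt is uncertain.

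The imprinted transcripts did not pass either. Kcnq1ot1 (chr7:143203458-143296549, minus strand), annotated as 1 exon of 93092 bases inside the potassium channel gene Kcnq1, had the lowest level per length, at 0.172 CPM per kb. Its naive libraries held 13.6, 13.04, 14.1, 17.2 and 22.8 CPM and its sham libraries 13.3, 12.3, 15.5, 21.96 and 16.5 CPM. Naive 5 and sham 4 were the highest of their groups, and the groups overlapped throughout. The log2 fold change was -0.018 ± 0.18 (edgeR adjusted p = 0.951), while Kcnq1 was lower in sham (-0.27 ± 0.090, edgeR adjusted p = 0.0320). Reads from unspliced Kcnq1 RNA cannot be told apart from those of Kcnq1ot1 without strand. Airn (chr17:12741311-12860136, plus strand), which overlaps the span of Igf2r but none of its exons, held 13.3, 14.8, 11.6, 16.5 and 22.2 CPM in naive and 13.3, 12.1, 15.8, 11.5 and 16.8 CPM in sham libraries. Naive 5 was again the highest. The log2 fold change of Airn was -0.18 ± 0.16 (edgeR adjusted p = 0.432), beside -0.092 ± 0.087 for Igf2r, the receptor that clears insulin-like growth factor 2. With library size alone the values of Mhrt, Kcnq1ot1 and Airn became positive, at 0.24, 0.23 and 0.081, and none passed.

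**Figure D3:**
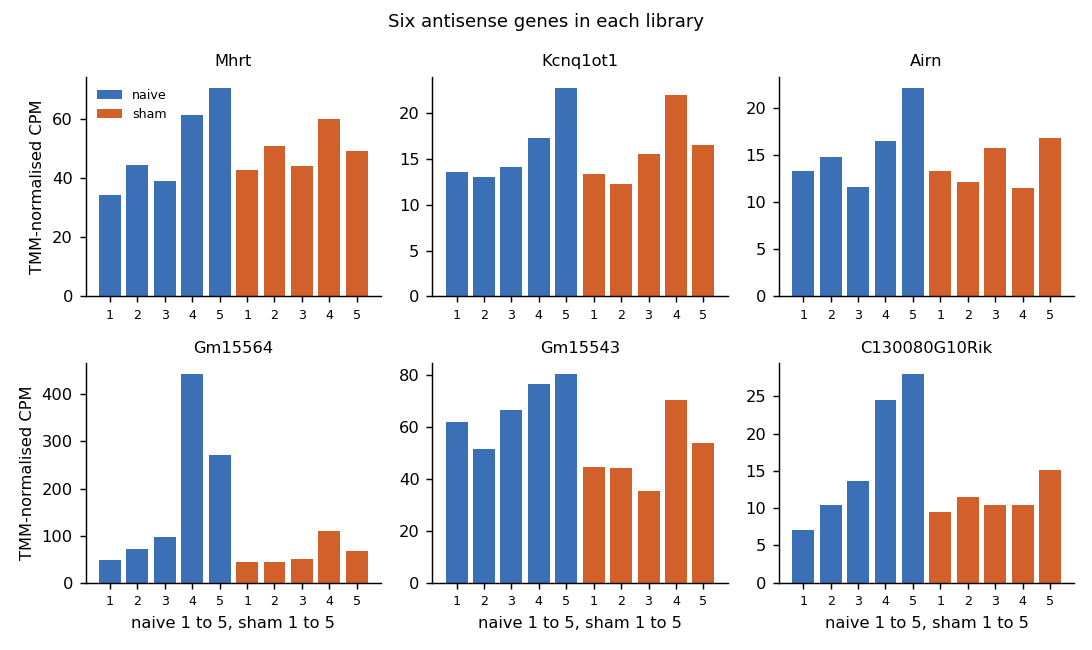
TMM-normalised CPM (y axis from 0) of 6 antisense genes in naive libraries 1 to 5 (blue bars) and sham libraries 1 to 5 (orange bars). Naive 4 and 5 are the highest naive libraries in all 6 genes, reaching 444 CPM for Gm15564 in naive 4 against 47.6 CPM in naive 1.

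The 45 genes together held 838 to 1147 CPM in naive and 644 to 748 CPM in sham libraries, with no overlap. Gm15564 made up much of the naive spread. Without it the sums were 704 to 790 CPM and 594 to 681 CPM. Before TMM scaling the sums, 727 to 1019 CPM in naive and 699 to 787 CPM in sham libraries, overlapped.

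The ratio of an antisense gene to its partner within a library does not depend on the scaling. For each of the 44 pairs the log2 ratio of counts, with 0.5 added to each, was compared between the groups with an exact two-sided permutation test, adjusted over the 175 antisense genes of the table that were tested and had a tested partner. None of the 44 pairs passed, nor did any of the 175 (0% called), and 8 of the 44 and 20 of the 175 had an unadjusted p under 0.05. The smallest p this test can give with 5 against 5 is 0.00794, so at least 28 of the 175 pairs would have had to reach it for any to pass, and the groups were fully separated in 9. The count of 0 therefore says little about the single pairs. With limma on the same ratios 1 pair of the 44 passed, Gm12963 with Col16a1. The ratio was lower in sham for 24 pairs and higher for 20, with a median difference of -0.03 on the log2 scale. Of the 44 partners 13 were lower and 2, Col16a1 and Myh7, were higher, beside 15.5% and 17.2% of all tested genes. The median log2 fold change was -0.22 for the partners and -0.26 for their antisense genes, beside -0.05 for all genes. In 30 of 44 pairs both genes had the same sign. Most antisense genes and most partners had negative values, which alone brings many pairs to the same sign. Across the 44 pairs Pearson's r of the log2 fold changes was -0.31 and Spearman's coefficient 0.047. Over all 175 pairs the sign was the same in 122, with r at 0.27 and Spearman's coefficient at 0.41. These describe genes of the same 10 libraries. Without the pair of Gm12963 and Col16a1, r was -0.022 and Spearman's coefficient 0.12 over 43 pairs.

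**Figure D4:**
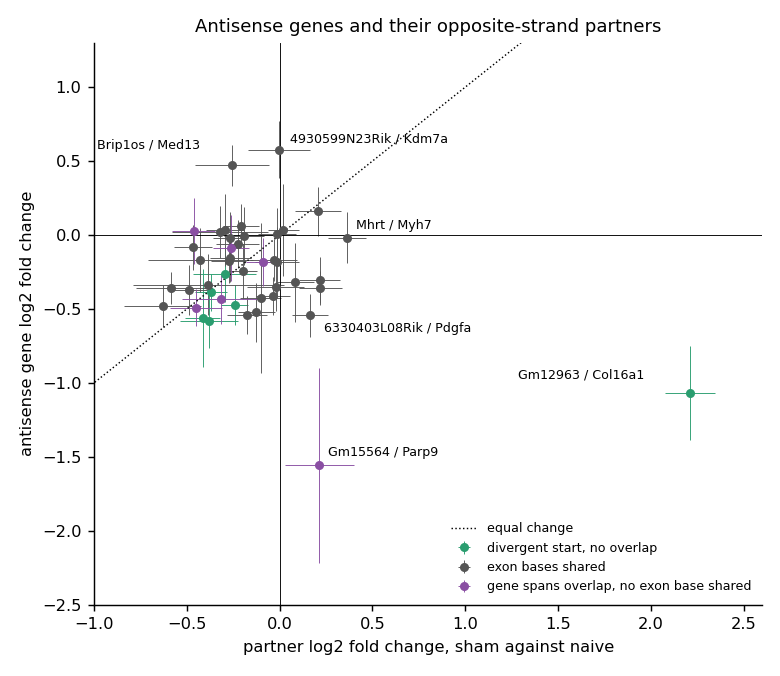
Log2 fold change of each antisense gene (y axis) against that of its opposite-strand partner (x axis) for 44 pairs, with bars of 1 standard error, coloured by position, and a dotted line for equal change. Most pairs lie within 0.7 of the origin on both axes, with Gm12963 and Col16a1 (-1.07 and 2.21) and Gm15564 and Parp9 (-1.56 and 0.21) apart.

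Of the 8 pairs with an unadjusted p under 0.05, 7 are described, a choice made with their values known. The log2 ratio of Gm12963 to Col16a1 was -0.69, -1.17, -1.04, -0.95 and -2.19 in naive and -4.16, -5.15, -4.43, -3.72 and -4.71 in sham libraries. The groups did not overlap, and the difference of -3.23 combined a lower antisense gene and a higher collagen gene (exact permutation p = 0.00794, adjusted p = 0.154; limma -3.23 ± 0.33, adjusted p = 4.86e-05). The log2 ratio of 6330403L08Rik to Pdgfa was 1.59, 1.10, 1.13, 0.96 and 1.09 in naive and 0.81, 0.43, 0.52, 0.15 and 0.47 in sham libraries, again without overlap (difference -0.70, exact permutation p = 0.00794, adjusted p = 0.154). Pdgfa itself did not pass, as given above.

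The mean ratio of Brip1os to Med13 was higher in sham, at -0.33 ± 0.36 in naive and 0.31 ± 0.25 in sham libraries (exact permutation p = 0.0159, adjusted p = 0.214).

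The mean ratio was lower in sham for Gm15417 to Zbtb7b, at -2.25 ± 0.22 against -2.86 ± 0.27, and for Gm19461 to Plekha6, at -4.13 ± 0.12 against -4.48 ± 0.22 (exact permutation p = 0.0159 and adjusted p = 0.214 for each). It was also lower for 4930481A15Rik to Drap1, at -3.88 ± 0.24 against -4.25 ± 0.25 (exact permutation p = 0.0476, adjusted p = 0.417), and for Gm15564 to Parp9, at 3.96 ± 1.06 against 2.59 ± 0.58 (exact permutation p = 0.0397, adjusted p = 0.386). In these pairs and in that of Brip1os the groups overlapped, and no difference passed after adjustment. For Mhrt to Myh7 the difference was -0.33 (exact permutation p = 0.143, adjusted p = 0.595), with -3.58, -3.45, -3.37, -2.91 and -2.84 in naive and -3.84, -3.73, -3.70, -3.29 and -3.23 in sham libraries. Sham 4 and 5 lay among the naive libraries.

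**Figure D5:**
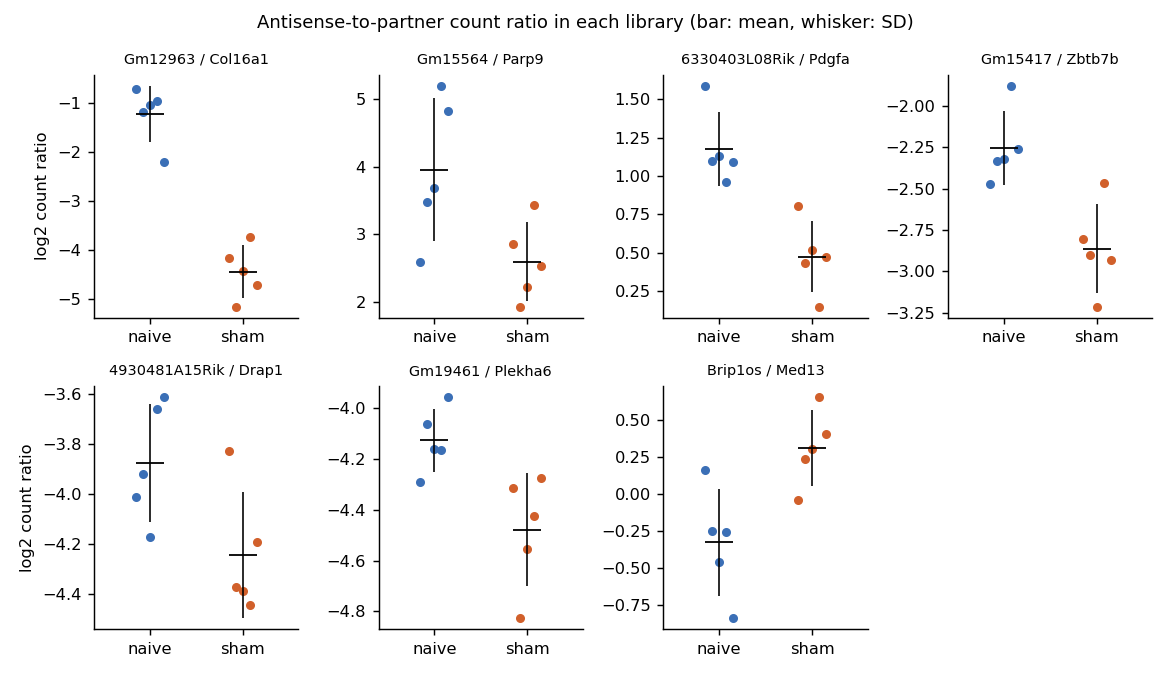
Log2 ratio of antisense to partner counts (y axis, a scale of its own in each panel) in each of 5 naive (blue) and 5 sham (orange) libraries for 7 pairs with an unadjusted exact p under 0.05, with the mean and SD in black. The groups do not overlap for Gm12963 with Col16a1 and for 6330403L08Rik with Pdgfa.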

How the data were processed

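The authors deposited 1 table of raw read counts per Ensembl gene for the 10 libraries, which the file headers credit to HTSeq, and it was neither pooled nor normalised. The submitters' processing notes name Bowtie2, TopHat2 2.1.1, HTSeq, DESeq, edgeR and GRCm38. No label or header names the annotation release, counting mode or strand setting. A column of GC content per gene in percent, per the file headers, served 1 alternative.

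Of 41264 rows, 574 repeated an identifier and were collapsed. Genes were filtered with filterByExpr and scaled with TMM in edgeR 4.0.16 (R 4.3.3), and tested with the quasi-likelihood F test on group alone. Nothing beyond separate samples says how the mice were handled, so p-values cover only sample-to-sample spread, which may be technical. Coordinates and exons are GENCODE M21 on GRCm38, and promoter windows, held for 31 of 45 antisense genes and 36 of 44 partners, are RefSeq's on GRCm38.p6. The antisense genes, the marker lists and the comparisons were chosen with earlier results of these data known. Named are all genes past the threshold, the 8 most abundant per kb, known transcripts set by name (of which Mhrt, Kcnq1ot1 and Airn met the rule) and their partners, of which 1 is not reported here. The gene test was tested on simulated data. Library totals of 9683181 to 21537135 put 3 counts, the floor, at 0.310 to 0.139 CPM. The floor covers counting error only. Alternatives were DESeq2 1.42.0, limma 3.58.1 (voom and ratios), other scalings, filters and limits, a replicate block and each library left out.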

Additional observations from a re-analysis of the deposited data

Results flagged for a closer look

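In 2 of the 46 sets of 5 libraries examined, those of the named antisense genes, 1 library lay far from the other 4, with a gap to its nearest neighbour above 0.71 of the whole range. Chance alone gives about 1 in 20 such sets. Gm13111 stood at 10.4 CPM in sham 1, where the next sham library stood at 6.24 CPM, a gap of 0.764 of the range. Gm10138 stood at 11.6 CPM in naive 4, where the next naive library stood at 14.7 CPM, a gap of 0.844 of the range.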

How the results depend on the processing

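Of the 45 antisense genes, 2 were higher and 12 lower. The lower count was 1 with library size alone and 19 with limma voom, and 12 to 16 with DESeq2, RLE or upper quartile factors, other filters, no robust estimation, the 20 most abundant genes left out, the GC correction or the replicate block, or, added after seeing the data, without naive 1 and sham 4. With 1 library left out it ran from 3 to 13 and the higher count from 1 to 2. A limit of 200 counts (115 genes) gave 4 higher and 19 lower, a limit of 1000 (25 genes) 1 and 10, and at most 20% shared exon bases (28 genes) 0 and 12. Shared replicate numbers were not taken to pair the libraries, since not all correlations of deviations exceeded 0.1: they were 0.227, 0.035, 0.00801, 0.293 and 0.292, and the best match was the own number for 1, 4 and 5 only. With the replicate block 2 were higher and 14 lower, which added Gm15543 (adjusted p = 0.0028) and Gm12473 (0.0437; with the GC correction too 0.00757 and 0.00687), and over all genes 2592 and 2801 in place of 2342 and 2113. Pairs with a different ratio numbered 0 in the exact test, and 1 with limma, with limma and the replicate block, and in every limma fit with 1 library left out. Of the 20 genes under 1000 counts 1 was higher and 2 lower, and the part of depth in this was not tested.

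Log2 fold changes that turned positive did not pass the test in the settings that turned them. With library size alone they were 0.030 for Gm12473, 0.236 for Mhrt, 0.181 for Gm10435, 0.199 for Gm17201, 0.118 for 4930539J05Rik, 0.0807 for Airn and 0.233 for Kcnq1ot1. Without naive 1 and sham 4 together they were 0.0118 for Gm12473, 0.0193 for Gm10435 and 0.0618 for 4930539J05Rik. With limma voom they were 0.145 for Mhrt, 0.0637 for Airn and 0.0262 for Kcnq1ot1. With no filter they were 0.00478 for Mhrt and 0.00584 for Kcnq1ot1. Mhrt was at 0.0182 with the replicate block, and Kcnq1ot1 at 0.000621 with upper quartile factors, 0.0714 with the GC correction and 0.0556 with that correction and the replicate block. With 1 library left out Mhrt ran from -0.126 to 0.138, Kcnq1ot1 from -0.134 to 0.141, Gm10435 from -0.200 to 0.0277 and Gm17201 from -0.143 to 0.0481. The cause of these changes was not tested.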
